A study of Rattus norvegicus with 6 samples.

Results

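The genes of cholesterol synthesis and sterol efflux were followed in oligodendrocytes, oligodendrocyte precursor cells (OPCs), astrocytes, myeloid cells and neurons of the rat brain, 48 h after permanent middle cerebral artery occlusion (MCAO). The members were a fixed list of 34 gene symbols, chosen for their place in the pathway with earlier results of these data known. Of these, 32 were found by symbol among the 30560 genes counted, while Fdps and Nsdhl were looked at here only in the promoter windows. By role, 6 of the 32 encode enzymes from acetyl-CoA to farnesyl diphosphate, 10 encode enzymes from squalene to cholesterol, 5 control the SREBP transcription factors, 6 belong to efflux, its LXR receptors and the sterol carriers, and 5 to sterol storage, lysosomal export and oxysterols.

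RNA of brain nuclei came from 11 male wild-type Wistar rats, 12 weeks old by the labels. A filament closed the right middle cerebral artery for good in the MCAO rats, and the Sham rats went through the same operation without it. Nuclei were pooled over rats into 6 libraries, namely Sham L and Sham R (the left and right hemispheres of 4 Sham rats), mMCAO contra and mMCAO ipsi (the uninjured and the infarcted hemisphere of 3 rats with moderate infarcts), and sMCAO contra and sMCAO ipsi (the same of 4 rats with severe infarcts). The libraries formed 3 groups of 2, Sham, MCAO contra and MCAO ipsi, whose values are given below in the order Sham L and Sham R, then the moderate and the severe library. The p-values given here measure the spread between the 2 libraries of a group, which for Sham are hemispheres of the same rats and for MCAO differ in severity.

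Cholesterol does not cross the blood-brain barrier, so the brain makes its own, and oligodendrocytes need large amounts of it for myelin. When membrane sterol is low, SCAP carries the SREBP proteins to the Golgi, where they are cut and released to switch on the synthesis enzymes, while the INSIG proteins hold SCAP back. When sterol is plentiful, oxysterols activate the LXR receptors, which raise ABCA1, ABCG1 and APOE, the pumps and the carrier that move cholesterol out of astrocytes and phagocytes to other cells.

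The libraries held 33012945 to 52513380 unique molecular identifiers (UMIs, each a captured RNA molecule), with a median of 2059 to 3360 UMIs per nucleus. Nuclei were assigned to a class from marker genes that include no member, and the UMIs of a class were summed per library and given as counts per 1000000 UMIs of that class and library (CPM). Own-class markers summed to 11572 to 15261 CPM in oligodendrocytes, 9942 to 12461 CPM in OPCs and 13887 to 16869 CPM in astrocytes. Astrocyte sums rested on 180232 and 115286 in Sham, 393424 and 232975 in contra, and 641689 and 1423986 in ipsi. Sham held only 11 and 12 myeloid nuclei, too few for a comparison. Reads came from the 5′ end of transcripts, so CPM were compared between classes and libraries but not between genes.

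The classes differed in which members they carried. The 16 synthesis enzymes together stood at 622 to 1327 CPM in oligodendrocytes and 344 to 1049 CPM in astrocytes, against 254 to 437 CPM in OPCs, 202 to 358 CPM in glutamatergic neurons and 196 to 269 CPM in GABAergic neurons. Hmgcs1, the enzyme that makes HMG-CoA, had its highest mean level in oligodendrocytes (122 CPM over 6 libraries) and the next in astrocytes (100 CPM), and the 2 ranges overlapped. Srebf2, the transcription factor that drives the synthesis enzymes, had its highest mean in oligodendrocytes (218 CPM), followed by astrocytes (148 CPM), myeloid cells (106 CPM over the 4 MCAO libraries), OPCs (96.3 CPM), glutamatergic neurons (90.4 CPM) and GABAergic neurons (64.4 CPM), and each range overlapped the next. Abca1, the pump that loads cholesterol onto lipid-poor apolipoproteins, was highest in myeloid cells (mean 583 CPM over the 4 MCAO libraries), above every library of astrocytes (mean 237 CPM). Oligodendrocytes followed (mean 143 CPM) and overlapped astrocytes, while OPCs (51.5 CPM), GABAergic neurons (22.5 CPM) and glutamatergic neurons (18.2 CPM) overlapped each neighbour in that order. Apoe, the main sterol carrier of the brain, was highest in astrocytes (mean 405 CPM) and myeloid cells (288 CPM), which overlapped, and both lay above every library of the other classes. Npc2, the lysosomal protein that hands cholesterol to NPC1, was at 264 CPM in myeloid cells, above all libraries of oligodendrocytes (mean 38.3 CPM). Cyp46a1, which turns cholesterol into the oxysterol that leaves the brain, was highest in GABAergic neurons (46.2 CPM), followed by glutamatergic neurons (37.2 CPM) and astrocytes (34.8 CPM), with overlapping ranges.

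**Figure D1:**
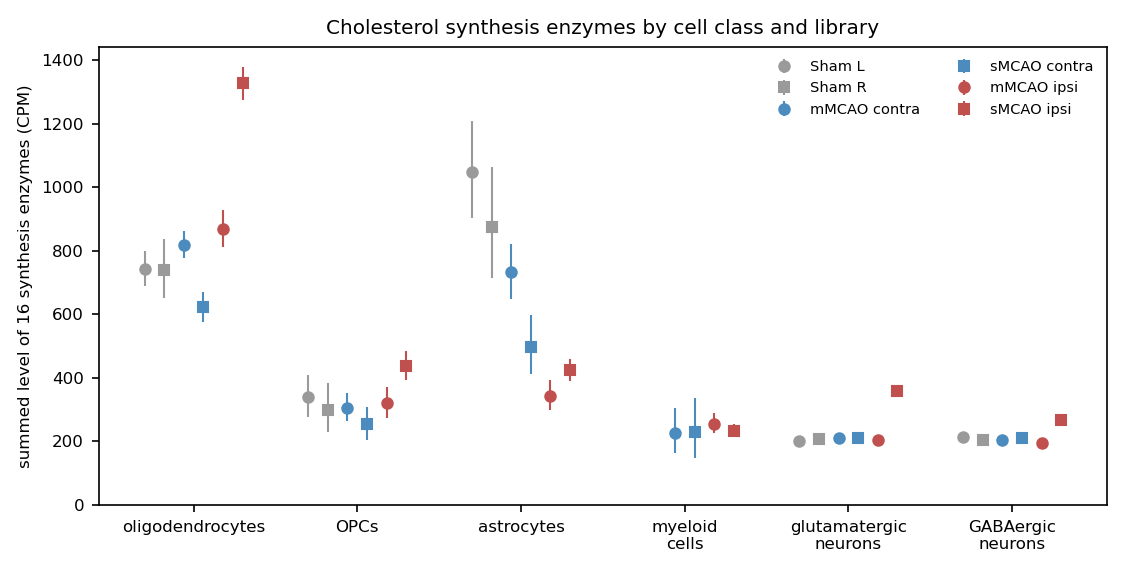
Summed level of the 16 cholesterol synthesis enzymes in CPM (vertical axis) for each of the 6 libraries, by cell class. In astrocytes the infarcted hemispheres were at 344 and 423 CPM against 1049 and 876 CPM in Sham, while in oligodendrocytes they were at 869 and 1327 CPM against 743 and 741 CPM in Sham.

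In astrocytes, the synthesis enzymes were lower in the infarcted hemisphere than in Sham, and Apoe was higher. The 16 enzymes summed to 1049 and 876 CPM in Sham, 732 and 498 CPM in contra, and 344 and 423 CPM in ipsi, so that the mean of the 2 Sham libraries was 2.51 times that of the 2 ipsi libraries. The gap was 3.6 times for the 6 enzymes from acetyl-CoA to farnesyl diphosphate and 2.23 times for the 10 enzymes from squalene to cholesterol. Both ipsi libraries lay below both Sham libraries for 13 of the 16 enzymes, and below the other 4 libraries for 10. The exceptions were Cyp51, where the groups overlapped, and Sqle and Ebp, where both ipsi libraries lay above Sham. Some of the 13 rested on few UMIs, with 0 to 4 per library for Tm7sf2. No floor on UMIs was set for the counts of 13 and 10. The share of all genes below the other 4 libraries is not given here. At a floor of 60 UMIs, 21.2% of all astrocyte genes lay below Sham in this way and 34.8% above. At the same floor, 7 of the 18 members of any role lay below Sham and 4 above.

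By edgeR's quasi-likelihood test, 17 members could be tested in astrocytes for MCAO ipsi against Sham, and 4 passed at an adjusted p under 0.05 with a log2 change of at least 0.6. Of these 3 fell and 1 rose, where 7.18% of all genes tested fell and 7.35% rose. The median log2 change was -0.62 over the members and 0.02 over all genes, with 11 members below 0 and 6 above.

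Fdft1, which joins farnesyl diphosphate into squalene, was at 283 and 243 CPM in the 2 Sham libraries, 155 CPM in mMCAO contra, 90.1 CPM in sMCAO contra, 74.8 CPM in mMCAO ipsi and 80.1 CPM in sMCAO ipsi. All 4 MCAO libraries lay below Sham, and Fdft1 fell by 1.83 on the log2 scale (SE 0.26, n = 2 against 2, adjusted p = 0.00107, edgeR). Hmgcs1 was at 150 and 156 CPM in Sham, 168 CPM in mMCAO contra, 51.5 CPM in sMCAO contra, 34.3 CPM in mMCAO ipsi and 42.1 CPM in sMCAO ipsi. Its contra libraries stood apart from each other, sMCAO contra near the ipsi libraries and mMCAO contra near Sham, and Hmgcs1 fell by 2.02 from Sham to ipsi (SE 0.44, adjusted p = 0.00885, edgeR). Lss, the cyclase that forms lanosterol, was at 105 CPM in Sham L, 43.4 CPM in Sham R, 28.0 and 25.8 CPM in contra, and 15.6 and 26.0 CPM in ipsi. It fell by 1.90 (SE 0.47, adjusted p = 0.0172, edgeR), and the 2 Sham libraries differed from each other more than the MCAO libraries did.

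Apoe was at 172 and 182 CPM in Sham, against 493 and 429 CPM in contra and 463 and 691 CPM in ipsi. The 4 MCAO libraries lay above Sham, and Apoe rose by 1.66 from Sham to ipsi (SE 0.25, adjusted p = 0.00127, edgeR). Free RNA was not removed here. The study, which removed it, reports Apoe and Abca1 as lower in its largest reactive astrocyte cluster than in its homeostatic clusters. Abca1 was at 172 and 234 CPM in Sham, 262 and 262 CPM in contra, and 246 and 244 CPM in ipsi, a log2 change of 0.24 (SE 0.21, adjusted p = 0.524, edgeR). This depended on which nuclei were taken as astrocytes. In Leiden clusters 11 of 24 members passed. Abca1 rose with Apoe, Npc2 and Soat1, while Hmgcs1, Fdft1, Lss, Sc5d, Idi1, Dhcr7 and Abcg1 fell. The share of all genes that passed in Leiden clusters is not given here. Members that missed the threshold with an adjusted p under 0.1 were all lower in ipsi, namely Sc5d (-1.57), Acat2 (-1.64), Srebf2 (-0.68) and Insig1 (-1.50), with adjusted p of 0.0607 to 0.0962 by edgeR. Srebf2 was at 166 and 173 CPM in Sham, 175 and 150 CPM in contra and 104 and 115 CPM in ipsi, with no overlap between ipsi and the rest.

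Against MCAO contra, 2 of the 17 astrocyte members passed, where 11.0% of all genes did. Hmgcs1 fell by 1.63 (SE 0.39, adjusted p = 0.0183, edgeR). Insig1, which retains SCAP in the endoplasmic reticulum and is itself an SREBP target, was at 49.9 and 52.0 CPM in Sham, 76.3 CPM in mMCAO contra, 25.8 CPM in sMCAO contra, 20.3 CPM in mMCAO ipsi and 17.6 CPM in sMCAO ipsi, and fell by 1.61 from contra to ipsi (SE 0.44, adjusted p = 0.0342, edgeR). Both calls rested on mMCAO contra. Without it, the change was -0.44 for Hmgcs1 (adjusted p = 0.682) and -0.50 for Insig1 (adjusted p = 0.801). Insig1 also lost the call without Sham L, Sham R or sMCAO ipsi. The DESeq2 test, only the 2 groups compared, Leiden clusters and nuclei low in neuron markers lost it as well. It was kept in 7 of 15 other settings.

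Other measures moved with the astrocyte result. UMIs per astrocyte nucleus were 794 and 655 in Sham, 1041 and 951 in contra, and 1389 and 2687 in ipsi. The 10 general neuron markers summed to 4455 and 4207 CPM in Sham astrocytes, 2150 and 2387 CPM in contra, 1791 CPM in mMCAO ipsi and 1181 CPM in sMCAO ipsi, with none of the 10 at 0. Reactive astrocyte genes summed to 316 and 408 CPM in Sham and to 3726 and 5985 CPM in ipsi. Cell cycle genes summed to 5.55 and 17.3 CPM in Sham, 35.6 and 34.3 CPM in contra, and 475 and 813 CPM in ipsi. Mitochondrial genes were at 999 and 1336 CPM in Sham, 1347 and 1734 CPM in contra, and 3125 and 4383 CPM in ipsi. The part of cell cycle and mitochondrial genes in the astrocyte result was not tested. When astrocytes with few neuron-marker UMIs were used alone, the log2 changes were -2.68 for Hmgcs1 (adjusted p = 0.0739), -2.05 for Fdft1 (adjusted p = 0.0504), -3.13 for Lss (adjusted p = 0.0450) and 2.15 for Apoe (adjusted p = 0.0438). In the same nuclei Abca1 was at 1.84 (adjusted p = 0.132) and Srebf2 at -0.21 (adjusted p = 0.942). Without Sham L, Lss was at -0.98 (adjusted p = 0.551) and Hmgcs1 at -2.0 (adjusted p = 0.125), and 2 members remained called, Apoe and Fdft1. Hmgcs1 was lost without Sham R as well (-2.01, adjusted p = 0.0584).

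In oligodendrocytes, the cells that wrap axons in myelin, Sqle and Apoe rose in the infarcted hemisphere, and the other synthesis enzymes did not pass the test. The 16 synthesis enzymes summed to 743 and 741 CPM in Sham, 819 and 622 CPM in contra, 869 CPM in mMCAO ipsi and 1327 CPM in sMCAO ipsi, a ratio of 1.48 between the means of ipsi and Sham. Both ipsi libraries lay above both Sham libraries for 8 of the 16 enzymes and below them for 1, Pmvk (-0.59, adjusted p = 0.439, edgeR). Of all genes with at least 60 UMIs in oligodendrocytes, 28.4% lay above Sham in this way and 23.3% below. At the same floor, 15 of the 30 members of any role lay above Sham and 1 below. Of the 30 members tested in MCAO ipsi against Sham, 2 rose and 0 fell, where 2.4% of all genes rose and 5.36% fell. The median log2 change was 0.45 over the members and 0.03 over all genes, with 23 members above 0 and 7 below.

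Sqle, the epoxidase that acts on squalene, was at 51.7 and 52.7 CPM in Sham, 62.5 and 59.7 CPM in contra, 114 CPM in mMCAO ipsi and 169 CPM in sMCAO ipsi. Both ipsi libraries lay above the other 4, and Sqle rose by 1.46 against Sham (SE 0.24, adjusted p = 0.0112) and by 1.21 against contra (SE 0.21, adjusted p = 0.0376, edgeR). Apoe was at 19.0 and 26.4 CPM in Sham, 18.8 and 14.7 CPM in contra, 50.8 CPM in mMCAO ipsi and 76.7 CPM in sMCAO ipsi, far below its astrocyte level in every library. It rose by 1.59 against Sham (SE 0.33, adjusted p = 0.0215) and by 1.90 against contra (SE 0.29, adjusted p = 0.0353, edgeR). These 2 genes were the only members past the threshold among the 30 tested against contra, where 1.06% of all genes passed.

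Fdft1 in oligodendrocytes was at 174 and 164 CPM in Sham, 199 and 144 CPM in contra, and 196 and 260 CPM in ipsi, a log2 change of 0.43 against Sham (SE 0.21, adjusted p = 0.266, edgeR). Srebf2 was at 189 and 149 CPM in Sham, 230 and 222 CPM in contra, and 260 and 255 CPM in ipsi, a change of 0.57 (SE 0.16, adjusted p = 0.0614). Abca1 was at 153 and 105 CPM in Sham, 149 and 168 CPM in contra, 174 CPM in mMCAO ipsi and 108 CPM in sMCAO ipsi, a change of 0.04 (SE 0.25, adjusted p = 0.962). For these 3 genes the values overlapped or missed the threshold.

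The oligodendrocyte calls depended on the nuclei and the libraries used. Against Sham, Sqle kept its call in 11 of 14 other settings and Apoe in 6 of 14. Apoe lost it with a stricter gate, in Leiden clusters and in nuclei low in neuron markers. Against contra, both genes lost their calls with the stricter gate and with simulated doublets left out. Without Sham L, Sqle was at 1.47 (adjusted p = 0.154), and without Sham R at 1.44 (adjusted p = 0.132), and no member passed against Sham or contra in either case. Without mMCAO contra or sMCAO contra, Apoe lost its call against Sham (adjusted p = 0.0546 and 0.0555), and both genes lost theirs against contra (adjusted p of 0.261 to 0.449). Without mMCAO ipsi, the median change against Sham over the members was 0.54, and without sMCAO ipsi it was 0.19. Each of these fits leaves 1 library in MCAO ipsi, so only the size of the change is given at this point. In sMCAO ipsi oligodendrocytes, heat shock genes summed to 1309 CPM against 227 to 357 CPM in the other libraries, and ribosomal protein genes to 4433 CPM against 845 to 1552 CPM. The general neuron markers in oligodendrocytes summed to 4965 and 4599 CPM in Sham and 2612 and 1500 CPM in ipsi. Reactive astrocyte genes summed to 36.9 and 29.3 CPM in Sham and 117 and 194 CPM in ipsi, and mitochondrial genes to 867 and 864 CPM against 1434 and 3730 CPM. The part of these measures in the result was not tested.

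In OPCs, the precursors of oligodendrocytes, the synthesis enzymes summed to 340 and 300 CPM in Sham, 305 and 254 CPM in contra, 320 CPM in mMCAO ipsi and 437 CPM in sMCAO ipsi. Of 16 members tested against Sham, 1 rose and 0 fell, where 8.46% of all genes rose and 9.16% fell. This was Sqle, at 19.0 and 18.8 CPM in Sham, 38.4 and 20.7 CPM in contra, and 44.9 and 58.6 CPM in ipsi, with 4 to 50 UMIs per library, and it rose by 1.34 (SE 0.45, adjusted p = 0.0395, edgeR). The call was lost in 8 of 14 other settings, DESeq2 among them (adjusted p = 0.321), and without Sham L (adjusted p = 0.260), Sham R (adjusted p = 0.154) or sMCAO ipsi (adjusted p = 0.161). Cell cycle genes in OPCs summed to 102 and 46.9 CPM in Sham and 776 and 890 CPM in ipsi, reactive astrocyte genes to 22.2 and 18.8 CPM against 228 and 510 CPM, and mitochondrial genes to 336 and 638 CPM against 1065 and 2170 CPM. Their part in the OPC results was not tested.

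Against contra, 2 of the 16 OPC members passed, where 10.7% of all genes did. Soat1, which esterifies cholesterol for storage in lipid droplets, was at 6.35 and 23.5 CPM in Sham, 14.4 and 13.0 CPM in contra, and 30.5 and 48.0 CPM in ipsi, and rose by 1.43 (SE 0.45, adjusted p = 0.0365, edgeR). Abcg1, a pump that passes cholesterol to lipoprotein particles, was at 34.9 and 28.2 CPM in Sham, 54.3 and 46.6 CPM in contra, and 30.5 and 17.6 CPM in ipsi. It fell by 1.25 from contra to ipsi (SE 0.35, adjusted p = 0.0182), and ipsi and Sham overlapped. DESeq2 called neither (adjusted p = 0.493 for Soat1 and 0.424 for Abcg1), and both were lost without mMCAO contra (adjusted p = 0.177 and 0.231) or sMCAO ipsi (adjusted p = 0.467 and 0.245), Soat1 also without sMCAO contra (adjusted p = 0.160). The 3 members with the highest mean CPM in OPCs did not pass the test. Srebf2 was at 95.2 and 70.4 CPM in Sham, 95.9 and 88.1 CPM in contra, and 104 and 124 CPM in ipsi. Fdft1 was at 57.1 and 46.9 CPM in Sham, 84.7 and 46.6 CPM in contra, and 59.3 and 80.8 CPM in ipsi. Scap, the sterol sensor that escorts the SREBPs, was at 76.2 and 61.0 CPM in Sham, 39.96 and 64.8 CPM in contra, and 35.9 and 49.2 CPM in ipsi.

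Whether the change from Sham to ipsi differed between classes was tested within libraries, with the 2 classes of a library in 1 fit. For astrocytes against oligodendrocytes, 11 of 30 members had a lower change in astrocytes and 0 a higher one, where 1.71% of all genes had a lower one. These were 9 synthesis enzymes (Fdft1, Hmgcs1, Acat2, Cyp51, Msmo1, Lss, Idi1, Sc5d and Tm7sf2) and 2 members of SREBP control (Insig1 and Srebf2). The filter on low counts was applied to both classes together. In astrocytes alone only 17 members passed it, and Idi1 and Tm7sf2 were not among them. The difference was -2.73 for Hmgcs1 (SE 0.37, adjusted p = 1.52e-06, edgeR), with a change of -2.02 in astrocytes and 0.65 in oligodendrocytes. It was -2.29 for Fdft1 (SE 0.29, adjusted p = 4.81e-07), -2.47 for Insig1 (SE 0.56, adjusted p = 0.00374) and -1.26 for Srebf2 (SE 0.31, adjusted p = 0.00778). The median difference was -1.33 over the members and 0.05 over all genes.

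Hmgcs1 and Fdft1 kept this difference in 7 of 7 other settings, namely DESeq2 size factors and each of the 6 libraries left out. Other choices of nuclei and the DESeq2 test were not run on differences between classes. Without Sham L the count was 2, without Sham R 4 and without sMCAO ipsi 5, and Cyp51 and Lss were then, without Sham L, at -0.97 (adjusted p = 0.725) and -0.76 (adjusted p = 0.798). The difference of Tm7sf2 rested on 4, 2, 4, 2, 0 and 2 UMIs in the astrocytes of the 6 libraries, in the order Sham L, Sham R, mMCAO contra, sMCAO contra, mMCAO ipsi and sMCAO ipsi, and that of Idi1 on 4, 3, 7, 7, 2 and 11 UMIs.

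**Figure D2:**
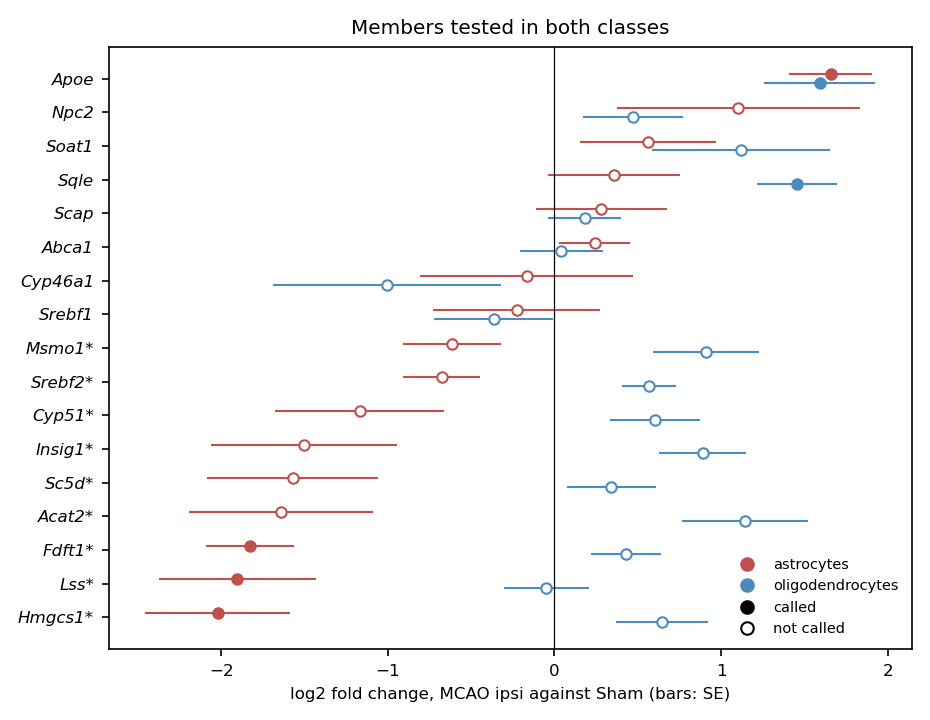
Log2 change from Sham to MCAO ipsi of the members tested in astrocytes and in oligodendrocytes, with bars for the standard error, filled points for members past the threshold and an asterisk where the change differed between the 2 classes. Hmgcs1 lay at -2.02 in astrocytes and 0.65 in oligodendrocytes, and Fdft1 at -1.83 and 0.43.

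Against OPCs, 2 of 22 members had a lower change in astrocytes, Fdft1 (-2.13, SE 0.38, adjusted p = 0.000212) and Hmgcs1 (-2.31, SE 0.53, adjusted p = 0.00407, edgeR), where 2.82% of all genes did. Hmgcs1 lost the call without Sham R (-1.90, adjusted p = 0.0942) or sMCAO ipsi (-1.91, adjusted p = 0.0698). Against glutamatergic neurons, 9 of 32 members had a lower change in astrocytes, where 3.35% of all genes did. They were the enzymes Fdft1, Hmgcs1, Cyp51, Lss, Sc5d, Mvd and Tm7sf2, with Insig1 and Abca1. Mvd and Tm7sf2 did not pass the filter on low counts in astrocytes alone. Their differences reached -9.67 and -10.6 in other settings. Without Sham L 3 remained past the threshold, Hmgcs1, Fdft1 and Abca1. Mvd lost its call without any 1 of the Sham and ipsi libraries (adjusted p of 0.0760 to 0.445), and Insig1 without sMCAO ipsi (adjusted p = 0.258). Between OPCs and oligodendrocytes, 0 of 28 members differed by edgeR, where 2.98% of all genes did. The change of Apoe in astrocytes did not pass as different from that in any class compared. The difference was 0.08 against oligodendrocytes, 0.36 against OPCs and -0.18 against glutamatergic neurons (adjusted p of 0.833 to 0.986, edgeR).

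The promoters of members whose change differed between astrocytes and oligodendrocytes are shown here for their CCAAT boxes, the site of the factor NF-Y, which is known to act with SREBP at sterol genes. RefSeq promoter windows (250 bases before to 50 bases after the start, rat build GRCr8) were matched by symbol for 30 of the 34 listed genes, and Pmvk, Fdft1, Sqle and Abcg1 had no entry. CCAAT, searched on both strands, was found in 21 of the 30 windows (70.0%) and in 37.5% of 33469 windows of all genes. The 30 held 1 window per gene, while the 33469 kept any further windows of a gene, so the shares are not from like sets. Fdps and Nsdhl, not found among the genes counted, were among the 30, and both held CCAAT. Of the 10 windows of members whose change differed between astrocytes and oligodendrocytes, 8 held it, as did 13 of the other 20. The sterol response element letters TCACNCCAC were in 0 of the 30 windows against 1.12% of all, and the E-box CACGTG in 4 of 30 against 6.42% of all. A missing match says only that these letters are not in the window. The 5 windows below are those of Hmgcs1 (chr2:53382054-53382353, plus strand), Idi1 (chr17:66547475-66547774, minus strand), Lss (chr20:12118181-12118480, minus strand), Insig1 (chr4:8057720-8058019, minus strand) and Cyp51 (chr4:30991443-30991742, plus strand), read in the direction of the gene. Capitals mark the CCAAT box, which in each case lies on the opposite strand and reads as ATTGG. It begins 188 and 133 bases before the start in Hmgcs1, 66 and 35 in Idi1, 82 in Lss and 193 in Insig1, and Cyp51 is shown as a window without it.
Hmgcs1: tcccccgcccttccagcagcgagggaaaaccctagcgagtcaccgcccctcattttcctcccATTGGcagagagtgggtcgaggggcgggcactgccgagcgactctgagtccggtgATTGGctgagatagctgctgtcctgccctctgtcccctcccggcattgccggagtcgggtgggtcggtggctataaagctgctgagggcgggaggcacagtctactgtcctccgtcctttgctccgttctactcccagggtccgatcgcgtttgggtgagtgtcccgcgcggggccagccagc
Idi1: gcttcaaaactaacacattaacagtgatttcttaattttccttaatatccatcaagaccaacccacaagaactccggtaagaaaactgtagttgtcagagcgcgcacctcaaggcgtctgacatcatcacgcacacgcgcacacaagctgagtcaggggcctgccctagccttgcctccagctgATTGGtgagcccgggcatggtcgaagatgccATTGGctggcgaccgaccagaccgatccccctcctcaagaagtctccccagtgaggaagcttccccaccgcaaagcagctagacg
Lss: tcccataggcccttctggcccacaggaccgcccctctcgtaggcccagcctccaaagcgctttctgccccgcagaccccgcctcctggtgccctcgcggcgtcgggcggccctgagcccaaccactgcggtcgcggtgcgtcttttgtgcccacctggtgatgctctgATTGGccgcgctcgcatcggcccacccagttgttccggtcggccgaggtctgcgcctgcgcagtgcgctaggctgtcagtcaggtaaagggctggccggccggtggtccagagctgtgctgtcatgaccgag
Insig1: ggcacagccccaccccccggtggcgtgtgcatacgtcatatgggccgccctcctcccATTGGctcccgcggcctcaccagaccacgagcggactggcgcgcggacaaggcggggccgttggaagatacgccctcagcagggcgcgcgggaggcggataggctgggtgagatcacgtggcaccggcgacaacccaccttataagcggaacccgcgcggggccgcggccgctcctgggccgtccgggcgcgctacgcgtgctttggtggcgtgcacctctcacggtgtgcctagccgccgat
Cyp51: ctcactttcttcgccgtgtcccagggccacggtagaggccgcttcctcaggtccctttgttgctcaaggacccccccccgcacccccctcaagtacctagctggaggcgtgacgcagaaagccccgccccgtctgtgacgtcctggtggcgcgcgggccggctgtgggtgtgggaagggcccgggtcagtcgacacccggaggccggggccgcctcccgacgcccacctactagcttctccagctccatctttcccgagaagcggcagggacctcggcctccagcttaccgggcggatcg

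Myeloid cells were compared between the 2 hemispheres of the MCAO rats, because Sham held too few of them. Abca1 was at 352 CPM in mMCAO contra, 365 CPM in sMCAO contra, 684 CPM in mMCAO ipsi and 930 CPM in sMCAO ipsi, and both ipsi libraries lay above both contra libraries. Apoe was at 194, 164, 254 and 540 CPM in the same order, and Npc2 at 179, 228, 297 and 351 CPM, again without overlap. The synthesis enzymes summed to 226 and 228 CPM in contra and 256 and 234 CPM in ipsi.

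None of the 20 members tested in myeloid cells passed, and neither did any other gene (0.0% of 9124), although 660 genes had an unadjusted p under 0.05 by edgeR, and DESeq2 called 0 members too. Of the members, 3 had an unadjusted p under 0.05, each higher in ipsi, namely Abca1 (1.09, SE 0.24), Apoe (1.05, SE 0.40) and Npc2 (0.61, SE 0.23), with an adjusted p of 0.634. The general neuron markers summed to 3407 and 3224 CPM in contra myeloid cells, 2259 CPM in mMCAO ipsi and 541 CPM in sMCAO ipsi. The part of these neuron UMIs in the differences was not tested. Nr1h3, which encodes LXR-alpha, had 0 UMIs in both contra libraries, 3 in mMCAO ipsi and 49 in sMCAO ipsi. All myeloid UMIs summed to 190466 and 109483 in contra, and to 1054087 and 2084046 in ipsi. Nr1h3 was at 2.85 CPM in mMCAO ipsi and 23.5 CPM in sMCAO ipsi. For the 0 counts, the upper Poisson bounds were 19.4 CPM in mMCAO contra and 33.7 CPM in sMCAO contra. At this depth the 0 counts cannot tell whether Nr1h3 was lower in contra than in ipsi.

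**Figure D3:**
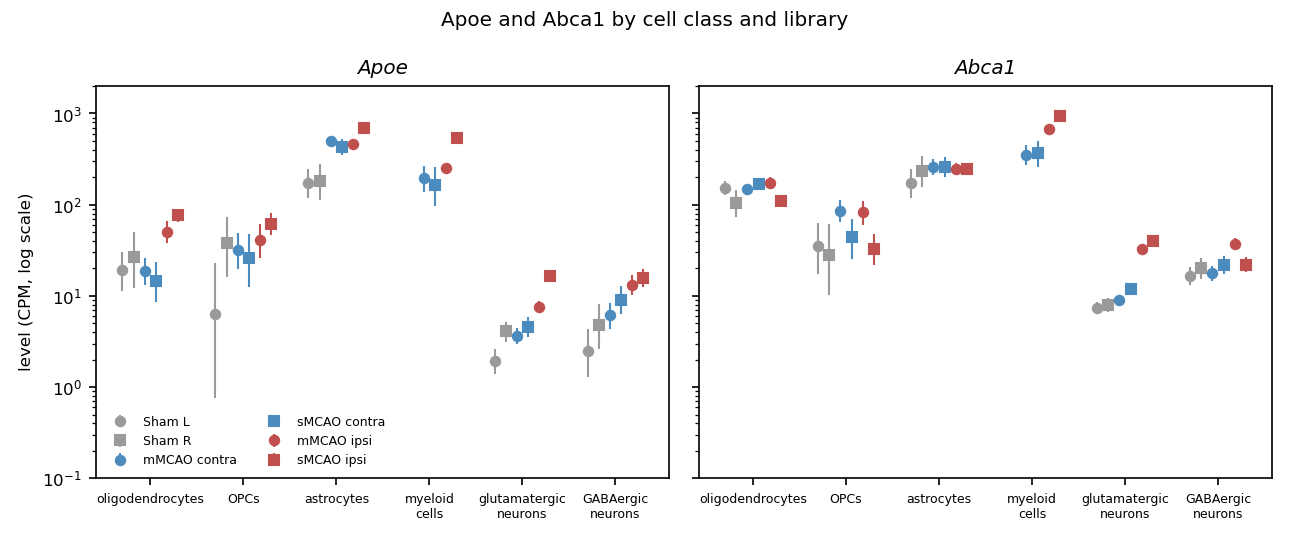
CPM of Apoe and Abca1 (log axis) in each library and cell class, with bars for the 95% Poisson interval of the count. Myeloid cells of Sham, with 11 and 12 nuclei, are not drawn. In glutamatergic neurons Abca1 stood at 32.4 and 40.4 CPM in the ipsi libraries and at 7.43 to 12.0 CPM in the other 4.

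In glutamatergic neurons, Abca1 and Apoe rose in the infarcted hemisphere. Abca1 was at 7.43 and 7.94 CPM in Sham, 8.90 and 12.0 CPM in contra, 32.4 CPM in mMCAO ipsi and 40.4 CPM in sMCAO ipsi, with 119 to 763 UMIs per library. Both ipsi libraries lay far above the other 4, and the rise was 2.12 against Sham (SE 0.15, adjusted p = 0.00139) and 1.82 against contra (SE 0.15, adjusted p = 0.00187, edgeR). Apoe was at 1.95 and 4.07 CPM in Sham, 3.66 and 4.58 CPM in contra, and 7.57 and 16.6 CPM in ipsi, and rose by 1.88 against Sham (SE 0.40, adjusted p = 0.0208) and by 1.52 against contra (SE 0.38, adjusted p = 0.0455, edgeR). Against Sham these were 2 of 31 members, with 0 that fell, where 4.4% of all genes rose and 2.6% fell. Against contra 3 of 31 passed, where 3.95% of all genes did, and the third was Srebf1, the SREBP gene of fatty acid synthesis. It fell by 1.03 (SE 0.21, adjusted p = 0.0256), from 5.04 and 6.23 CPM to 2.42 and 3.09 CPM, with 3.90 and 4.60 CPM in Sham. Apoe and Srebf1 lost their calls against contra without Sham L, Sham R, mMCAO contra or sMCAO contra. Both were also lost with a stricter gate and with only the 2 groups compared, and Apoe with simulated doublets left out. Apoe kept its call in 8 and Srebf1 in 9 of 15 other settings, while Abca1 kept its call against contra in 15 of 15.

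Markers of other cell classes were counted in the same neurons beside these rises. A nucleus joined a neuron class only with every glial marker list below its threshold, so the gate itself held these markers low. Myeloid cells and astrocytes were chosen for high levels of the same markers. Abca1 and Apoe were not part of the gate. The percentages below therefore cannot measure how much of their level came from other cells. The 16 myeloid markers summed to 89.8 and 93.9 CPM in the glutamatergic neurons of Sham, 105 and 94.0 CPM in contra, 166 CPM in mMCAO ipsi and 139 CPM in sMCAO ipsi, with none at 0. Taken as a percentage of the level in myeloid cells of the same library, the difference from the Sham mean was 3.62% and 3.52% for Abca1 in the 2 ipsi libraries, against 0.757% and 0.469% for the myeloid markers. Taken as a percentage of the astrocyte level, it was 0.985% and 1.97% for Apoe and 0.248% and 0.271% for Gfap, while it was -0.212% and -0.525% for the 13 astrocyte markers together. The 11 reactive astrocyte genes summed to 9.19 and 10.8 CPM in Sham, 11.2 and 17.9 CPM in contra, and 31.3 and 49.6 CPM in ipsi, and 8 of the 9 tested rose (median log2 change 1.97 over the 9). Their part in the rises of Apoe and Abca1 was not tested. Without Sham L, Abca1 was at 2.09 against Sham (adjusted p = 0.0539) and Apoe at 1.42 (adjusted p = 0.210). Apoe against Sham also lost the call without Sham R (adjusted p = 0.0565), mMCAO contra (0.0575) or sMCAO contra (0.0565).

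The 3 members with the highest mean CPM in glutamatergic neurons did not pass the test against Sham. Srebf2 was at 91.9 and 91.7 CPM in Sham, 98.1 and 98.3 CPM in contra, and 72.2 and 90.3 CPM in ipsi (-0.30, SE 0.09, adjusted p = 0.0549, edgeR). Scap was at 64.6 and 63.1 CPM in Sham, 74.4 and 70.1 CPM in contra, and 58.2 and 61.6 CPM in ipsi. Fdft1 was at 32.4 and 31.7 CPM in Sham, 35.0 and 33.5 CPM in contra, 33.8 CPM in mMCAO ipsi and 63.4 CPM in sMCAO ipsi, so that 1 of the 2 ipsi libraries stood apart. Mylip, the ligase through which LXR lowers lipoprotein receptors, was higher by 0.46 (adjusted p = 0.0149) and Sc5d by 0.38 (adjusted p = 0.0476), both under the size limit of 0.6. Without mMCAO ipsi, the median change against Sham over the members was 0.48, and without sMCAO ipsi it was -0.03. Each of these fits leaves 1 library in MCAO ipsi, so only the size of the change is given at this point.

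In GABAergic neurons, Apoe was at 2.5 and 4.83 CPM in Sham, 6.12 and 9.10 CPM in contra, and 13.2 and 15.7 CPM in ipsi, and rose by 2.0 against Sham (SE 0.32, adjusted p = 0.0171, edgeR). It was the only 1 of 30 members that rose, and 0 fell, where 1.09% of all genes rose and 0.531% fell. The myeloid markers summed to 38.8 and 53.2 CPM in Sham and 106 and 86.2 CPM in ipsi in these cells. The difference of Apoe from the Sham mean was 2.06% and 1.74% of the astrocyte level, and that of Gfap 0.354% and 0.224%. Here too the gate held Gfap and the other glial markers low but not Apoe, so these percentages cannot be set against each other. Reactive astrocyte genes summed to 8.55 and 6.22 CPM in Sham, 10.6 and 17.9 CPM in contra, and 37.5 and 62.2 CPM in ipsi, and 4 of the 4 tested rose (median 3.45). Their part in the rise of Apoe was not tested. The call was lost without Sham L (1.51, adjusted p = 0.417) or Sham R (2.44, adjusted p = 0.106). Against contra, 0 of 30 members passed by edgeR (8 with an unadjusted p under 0.05, and 0 by DESeq2), where 0.523% of all genes did. The unadjusted cut was passed by 1709 of all 12611 genes.

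Abca1 in GABAergic neurons was at 16.5 and 20.03 CPM in Sham, 17.6 and 21.9 CPM in contra, 36.9 CPM in mMCAO ipsi and 22.1 CPM in sMCAO ipsi (0.65, SE 0.25, adjusted p = 0.186, edgeR). Cyp46a1 was at 44.0 and 38.0 CPM in Sham, 58.2 and 59.1 CPM in contra, and 39.6 and 38.5 CPM in ipsi. Both contra libraries lay above the other 4, with a change from contra to ipsi of -0.56 (SE 0.11, adjusted p = 0.0511). Srebf2 was at 62.1 and 61.1 CPM in Sham, 66.3 and 70.4 CPM in contra, and 54.0 and 72.7 CPM in ipsi, and Scap at 56.7 and 53.9, 61.8 and 70.9, and 51.1 and 57.4 CPM. Of the nuclei gated as GABAergic, 49.2% lay in clusters of that name, the weakest match of the 6 classes.

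The severe and the moderate infarct were each 1 library, so their ratio has a counting interval and no test. In oligodendrocytes all 16 synthesis enzymes were higher in sMCAO ipsi than in mMCAO ipsi, where 47.2% of all genes with at least 60 UMIs were. Their sum was 1.53 times as high (95% interval 1.41 to 1.65), with Idi1, the isomerase of the isoprenoid steps, at 2.39 (1.58 to 3.74) and Msmo1, a demethylating oxidase of late synthesis, at 1.97 (1.56 to 2.5). In glutamatergic neurons all 16 were higher as well, where 63.1% of all genes were, and their sum was 1.74 times as high (1.67 to 1.82). The glutamatergic neurons of sMCAO ipsi stood apart, with 1239 nuclei or 14.3% of their library against 28.7% to 34.2% in the other 5, and with 9139 UMIs per nucleus against 3500 to 5420. Oligodendrocytes had 1323 UMIs per nucleus in sMCAO ipsi, 841 in mMCAO ipsi and 815 to 959 in the Sham and contra libraries. The part of depth in these ratios was not tested. The ratio of the sum was 1.37 (1.26 to 1.49) in GABAergic neurons, 1.37 (1.14 to 1.64) in OPCs, 1.23 (1.05 to 1.44) in astrocytes and 0.912 (0.785 to 1.06) in myeloid cells.

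Abca1 went different ways by class. It was lower in the severe than in the moderate library in oligodendrocytes (0.622, 0.506 to 0.766), OPCs (0.397, 0.239 to 0.649) and GABAergic neurons (0.598, 0.468 to 0.762), and higher in myeloid cells (1.36, 1.25 to 1.48) and glutamatergic neurons (1.25, 1.11 to 1.40). In astrocytes it was at 0.990 (0.818 to 1.20). Myeloid cells had 7 members above 1 with the whole interval and 2 below 1. Those above 1 included Apoe (2.13, 1.86 to 2.44), Nr1h3 (8.26, 2.67 to 41.4) and Soat1 (1.33, 1.09 to 1.63). The share of all genes whose whole interval lay above 1 is not given here. At a floor of 60 UMIs, the severe library was the higher one for 11 of 18 myeloid members and for 58.7% of all myeloid genes. Ribosomal protein genes also stood higher in sMCAO ipsi than in mMCAO ipsi, at 6699 against 2276 CPM in myeloid cells, 1080 against 612 CPM in glutamatergic neurons and 3014 against 1499 CPM in astrocytes. Severity cannot be told apart from the library.

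**Figure D4:**
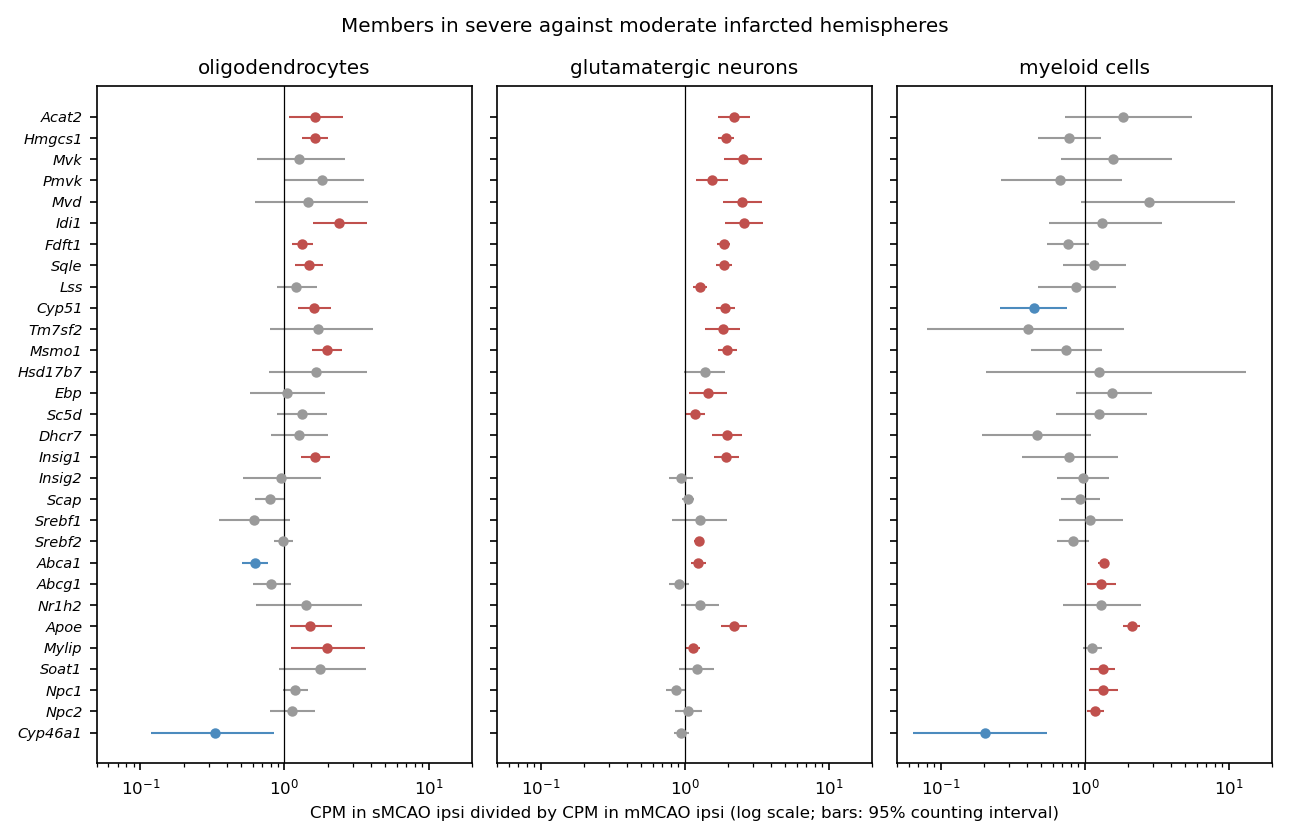
Ratio of CPM in sMCAO ipsi to mMCAO ipsi (log axis) for 30 members in oligodendrocytes, glutamatergic neurons and myeloid cells, with 95% intervals that cover counting error only. Red intervals lie above 1, blue below 1 and grey include 1. Abca1 was at 0.622 in oligodendrocytes, 1.25 in glutamatergic neurons and 1.36 in myeloid cells.

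In the contralateral hemisphere, no member passed against Sham in any of the 5 classes tested by edgeR or DESeq2. All genes passed at 0.0% in oligodendrocytes, 1.11% in OPCs, 0.0% in astrocytes, 0.047% in glutamatergic neurons and 0.0% in GABAergic neurons. At an unadjusted p under 0.05 there were 3 members in oligodendrocytes, 2 in OPCs, 3 in astrocytes, 3 in glutamatergic neurons and 4 in GABAergic neurons. The members tested were 30, 16, 17, 31 and 30 in the same order. Among all genes, the same cut was passed by 791 of 9683, 943 of 7508, 555 of 6573, 2298 of 14902 and 1500 of 12611. The change of Apoe in astrocytes was 1.37 (SE 0.26, adjusted p = 0.166, edgeR), with 493 and 429 CPM in contra against 172 and 182 CPM in Sham, and that of Fdft1 was -1.08 (SE 0.27, adjusted p = 0.359).

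Other genes of lipid handling, from lists that held no member, were tested in the same fits of MCAO ipsi against Sham, and their counts stand beside the shares of all genes given for each class above. In astrocytes, where 7.18% of all genes fell and 7.35% rose, 3 of 12 lipogenic SREBP and LXR targets fell and 0 rose, led by Acss2, an acetyl-CoA synthetase (-1.33, SE 0.23), and 1 of 3 other SREBP2 targets fell, the acyl-CoA synthetase Acsl3 (-1.28, SE 0.20). Clu, which encodes the lipoprotein clusterin, rose by 1.90 in astrocytes (SE 0.25) and by 0.85 in GABAergic neurons (SE 0.19). In OPCs, where 8.46% of all genes rose, 2 of 11 lipogenic targets rose, the fatty acid desaturases Fads1 (1.90, SE 0.64) and Fads2 (1.5, SE 0.52), and Lrp1, a receptor for apolipoprotein E, rose by 0.64 (SE 0.20). In oligodendrocytes the lipocalin carrier Apod rose by 1.32 (SE 0.20), the only 1 of 7 receptors and carriers, where 2.4% of all genes rose, and 0 of 10 lipogenic targets passed. In glutamatergic neurons Pltp, the phospholipid transfer protein (1.12, SE 0.29), Plin2, a coat protein of lipid droplets (1.23, SE 0.33), and Ch25h, which makes 25-hydroxycholesterol (1.41, SE 0.38), rose, where 4.4% of all genes did. They were 1 of 13 lipogenic targets (Fads2 fell by 0.62), 1 of 5 lipid droplet genes and 1 of the 2 oxysterol enzymes that rose among 4. Of the 6 genes tested of the prenyl branch, which leaves the pathway before squalene, 0 passed in each class.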

How the data were processed

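The authors counted the reads of a droplet-based 5′ kit with Cell Ranger 7.0.0 against mRatBN7.2, intronic reads included (tool and build by the submitters' processing notes). The values as deposited are raw UMI counts per gene and nucleus, whole numbers, before the removal of free RNA and doublets that the study describes. The members, the gene lists and the tests were chosen with earlier results of these data known.

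Nuclei with at least 500 UMIs, 250 to 5000 genes and at most 5% mitochondrial UMIs were kept (8665 to 14491 per library). Barcodes shared by 2 libraries numbered 118 to 280, or 1.36% to 2.16% of the smaller one. A nucleus joined a glial class when the summed class markers reached 20 to 60 per 10000 UMIs with at least 3 UMIs. They also had to lead the next list by 2 times, and the general neuron markers had to stay below 100 per 10000. A neuron class needed 100 per 10000, a lead in its core markers and every glial list below its threshold. These thresholds were set after the marker UMIs, but no member, had been seen. Nuclei that passed for a glial class without the lead over the next list were left out. The gate took in 176 to 530 astrocytes and 186 to 450 OPCs per library, and 49.2% to 96.1% of the gated nuclei of a class lay in Leiden clusters of the same name (scanpy 1.11.5, leidenalg 0.10.2).

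Within each class the UMIs of a library were added up, given at least 20 nuclei in each. Genes passing filterByExpr were tested with edgeR's quasi-likelihood test (edgeR 4.0.16, R 4.3.3, TMM) on all 6 libraries, with Benjamini-Hochberg adjustment over all genes of a class and comparison, and a call needed an adjusted p below 0.05 with a log2 change of 0.6 or more in size. Changes of 2 classes were compared in 1 fit with the library as block and with the filter applied to both classes together. Myeloid cells were fitted on the 4 MCAO libraries, a choice made after the data were seen. The script was tested on simulated data. Poisson and severity intervals (95%) cover counting error only. Contra and ipsi libraries of a severity came from the same rats by the study's methods, and the deviations of the 2 severities correlated between hemispheres at -0.0504 to 0.116 over genes in the 6 classes, so a fit with the rat pool as block was made beside that of ipsi against contra. It changed no count of calls.

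Named with values were all members called in MCAO ipsi against Sham, the 3 members of highest mean CPM in each class, and at most 3 called genes of the other pathway lists per class. Genes named beyond these were chosen after their values were seen. Alternatives were DESeq2 1.42.0 (size factors or test), no filter on low counts, only the 2 groups compared, a stricter gate, Leiden clusters, simulated doublets left out (5% of nuclei), glial nuclei low in neuron markers, and each library left out. Differences between classes were refitted only with DESeq2 size factors and with each library left out. Leaving out any library, Sham libraries included, leaves 1 in its group, which is then taken to vary like the other groups. Counts and adjusted p from such fits describe how far a call depends on 1 library and are not tests on their own. Promoters came from RefSeq (GRCr8).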

Additional observations from a re-analysis of the deposited data

Results flagged for a closer look

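The results picked out here are those in which the change from Sham to MCAO ipsi differed between 2 classes by the within-library test (edgeR). Each value is the fitted difference in log2 change, astrocytes minus the other class. Idi1, Tm7sf2 and Mvd did not pass the filter on low counts in astrocytes alone.

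Against oligodendrocytes, the difference was -2.29 for Fdft1, -2.73 for Hmgcs1, -2.47 for Insig1, -2.88 for Acat2, -1.86 for Cyp51 and -1.26 for Srebf2. It was -1.56 for Msmo1, -1.93 for Lss, -3.09 for Idi1, -1.99 for Sc5d and -4.49 for Tm7sf2. Against glutamatergic neurons, it was -2.24 for Fdft1, -2.42 for Hmgcs1, -1.80 for Abca1, -1.82 for Cyp51, -5.39 for Tm7sf2, -1.67 for Lss, -2.29 for Insig1, -1.90 for Sc5d and -3.57 for Mvd. Against OPCs, it was -2.13 for Fdft1 and -2.31 for Hmgcs1.

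Fdft1 stood in all 3 comparisons and passed in 7 of 7 other settings of each. These settings were DESeq2 size factors and single libraries left out, with the choice of nuclei unchanged. Hmgcs1 passed in 7 of 7 against oligodendrocytes and glutamatergic neurons and in 5 of 7 against OPCs. The comparisons share the astrocyte libraries. Astrocytes also had the largest spread of UMIs per nucleus among the glial classes tested, 655 to 2687, and the part of depth in these differences was not tested.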

How the results depend on the processing

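Over the 19 called changes within a class, 274 alternative values were computed, of which 196 kept the call, 78 lost it and 0 turned the direction. Over the 22 differences between classes the numbers were 154, 119, 35 and 0. For these differences only DESeq2 size factors and each library left out were tried. Apoe in astrocytes against Sham passed in 14 of 14 settings, and Abca1 in glutamatergic neurons against contra in 15 of 15. No setting removed free RNA. The change of Apoe did not pass as different between astrocytes and oligodendrocytes, OPCs or glutamatergic neurons.

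Without the filter on low counts, members called in ipsi against Sham were 6 in oligodendrocytes (2 as reported), 3 in OPCs (1), 7 in glutamatergic neurons (2) and 2 in GABAergic neurons (1). In ipsi against contra they were 8 in oligodendrocytes (2), 6 in glutamatergic neurons (3) and 2 in GABAergic neurons (0), and in contra against Sham 1 in astrocytes and 1 in glutamatergic neurons (0 each). With only the 2 groups compared, they were 0 in oligodendrocytes against Sham and against contra, 1 in astrocytes against contra (2), 1 in glutamatergic neurons against Sham and 1 against contra, and in contra against Sham 2 in astrocytes and 1 in glutamatergic neurons. DESeq2 gave 0 in OPCs in both ipsi comparisons and 1 in astrocytes against contra. The stricter gate gave 1 in oligodendrocytes against Sham and 0 against contra, 1 in glutamatergic neurons against contra and 0 in GABAergic neurons against Sham. Leiden clusters gave 1 in oligodendrocytes and 0 in OPCs against Sham, and in astrocytes 11 against Sham (4) and 5 against contra. Without simulated doublets there were 0 in oligodendrocytes against contra and 0 in OPCs against Sham. In nuclei low in neuron markers there was 1 in oligodendrocytes in each ipsi comparison, 0 in OPCs in each, and in astrocytes 2 against Sham and 1 against contra. The cause of these moves was not tested. The shares of all genes that passed in these settings are not given, so the counts describe the settings and not the members.

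With 1 library left out, calls against Sham ranged from 0 to 10 in oligodendrocytes, 0 to 3 in OPCs, 2 to 5 in astrocytes, 0 to 12 in glutamatergic neurons and 0 to 2 in GABAergic neurons. Against contra they ranged from 0 to 12, 0 to 6, 0 to 3, 1 to 14 and 0 to 3 in the same order, and from 0 to 4 in myeloid cells. In contra against Sham they ranged from 0 to 2 in astrocytes and 0 to 1 in glutamatergic neurons. The differences between classes ranged from 2 to 11 against oligodendrocytes, 1 to 2 against OPCs and 3 to 9 against glutamatergic neurons, and from 0 to 1 between OPCs and oligodendrocytes. The highest counts within a class came without mMCAO ipsi in oligodendrocytes and glutamatergic neurons, and a lone library was then taken to vary like the other groups. The shares of all genes that passed in these fits are not given here. With the rat pool as replicate block, ipsi against contra gave 2 members in oligodendrocytes, 2 in OPCs, 2 in astrocytes, 3 in glutamatergic neurons and 0 in GABAergic neurons and myeloid cells, as without it. Depth limits OPCs and astrocytes most, where 16 and 17 of the 32 members passed the filter.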

Other observations

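In astrocytes, 3 genes of lipid droplets, sterol transport and oxysterols, none of them a member, rose in the infarcted hemisphere. These genes were chosen here after their values were seen. They were 1 of 2 lipid droplet genes, 1 of 9 genes of intracellular sterol transport (median log2 change 0.19 over the 9) and 1 of 1 oxysterol enzymes tested, where 7.35% of all genes rose. Plin2, a coat protein of lipid droplets, was at 11.1 and 8.67 CPM in Sham, 7.63 and 12.9 CPM in contra, and 59.2 and 75.8 CPM in ipsi, a log2 change against Sham of 2.67 (SE 0.57, adjusted p = 0.00829, edgeR). Gramd1c, a carrier of cholesterol between the plasma membrane and the endoplasmic reticulum, was at 11.1 and 26.0 CPM in Sham, 33.0 and 17.2 CPM in contra, and 67.0 and 108 CPM in ipsi, a change of 2.33 (SE 0.56, adjusted p = 0.0154). Cyp7b1, the oxysterol hydroxylase, was at 743 and 772 CPM in Sham, 826 and 751 CPM in contra, and 1303 and 1217 CPM in ipsi, a change of 0.67 (SE 0.16, adjusted p = 0.0136). For each of the 3 genes both ipsi libraries lay above the other 4. Their calls under the alternative settings are not given here.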
